A study of Mus musculus with 15 samples.

Results

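Rhox5, Ren1, Brinp2 and Snorc are 4 of the 17271 genes of the deposited RNA-seq table. They were chosen by their values in the mouse mammary tumour model 2225L, as genes with the largest differences that set 2225L above the other models. By the difference of group means from the model 2208L, Rhox5, Ren1 and Brinp2 ranked 1, 2 and 3 of all genes, and Snorc ranked 22. The next gene outside the choice was Cldn6, at a log2 difference of 10.81, below Brinp2 at 11.72. By the difference from the model 2151R, Rhox5, Snorc, Ren1 and Brinp2 ranked 1, 3, 4 and 5. There Gpx2, at 12.94, ranked 2 but was not chosen, and Wfdc12 came next after Brinp2, at 11.26 against 11.57. Because these differences selected the genes, they are given below as a description, with no test.

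All 15 samples were labelled as mouse mammary tumour, with the genotype p53-null and the strain BALB/c. The titles name 4 models: 2225L has 2 samples, 2208L has 8, 2151R has 4 and T11 has 1. The 2208L samples comprised 4 titled PBS, 3 titled 3day nt and 1 with the library prefix ROSEN. The 2 samples of 2225L, replicates 1 and 2, carried the prefixes CP and ROSEN, and all other samples but the 2208L ROSEN sample were CP. The ages of the mice are not given in the sources used here, nor is what "nt" stands for. Each 2151R title holds its own code before the library number, which is NT2 for replicate 3 and NT for replicate 4. Replicates 1 and 2 carry other codes, and whether the codes mark a treatment is not given. The title of 2225L replicate 1 also holds T-Vivo, whose meaning is not given. No label says that samples of a model came from separate animals, so p-values measure the spread between these samples, which may be technical. RNA was taken from bulk tumour, where fewer cells of a type and less RNA per cell cannot be told apart.

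The 4 genes have separate known roles. Rhox5 is the founding gene of the X-linked reproductive homeobox cluster and encodes a homeodomain transcription factor of the testis, epididymis, ovary and placenta, kept silent by DNA methylation in most adult tissues. Ren1 encodes renin, the aspartyl protease that cuts angiotensinogen to start the angiotensin cascade, made chiefly by juxtaglomerular cells of the kidney, and it is the only renin gene of BALB/c mice. Brinp2 encodes a neural protein of the BRINP family, named for its induction by bone morphogenetic protein (BMP) and retinoic acid. Snorc encodes a transmembrane chondroitin sulphate proteoglycan of cartilage.

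In the GENCODE M21 annotation of GRCm38, the assembly also called mm10, Rhox5 lies on the plus strand at chrX:37804842-37808876 with 4 exons. Ren1 lies on the plus strand at chr1:133350510-133360325 with up to 9 exons. Brinp2 lies on the minus strand at chr1:158245269-158356326 with 8 exons, and Snorc on the plus strand at chr1:87470271-87475482 with 3 exons. None of the 4 overlapped another annotated gene. Chromosome 1 thus holds 3 of the 4, against 6.08% of the 16239 genes of the table that could be placed. The promoters of Rhox5 and Ren1 are shown because these genes had the largest and the next largest difference from 2208L. Each run holds 250 bases before and 50 after the gene start of RefSeq (GRCm38.p6), read 5′ to 3′ on the plus strand, from chrX:37754358-37754657 and chr1:133350424-133350723. Capitals in Rhox5 mark CTTCCGG, the reverse complement of the ETS factor core CCGGAAG. In Ren1 they mark TAATAAATC, known as a HOX and PBX element of the renin promoter, and the TATA box TATAAAA.
Rhox5: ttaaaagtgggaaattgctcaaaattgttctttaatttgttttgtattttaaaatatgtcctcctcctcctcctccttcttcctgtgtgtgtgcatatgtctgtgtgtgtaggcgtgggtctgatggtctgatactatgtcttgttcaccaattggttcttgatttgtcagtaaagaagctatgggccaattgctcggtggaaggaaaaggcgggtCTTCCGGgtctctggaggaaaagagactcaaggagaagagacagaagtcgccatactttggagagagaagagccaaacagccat
Ren1: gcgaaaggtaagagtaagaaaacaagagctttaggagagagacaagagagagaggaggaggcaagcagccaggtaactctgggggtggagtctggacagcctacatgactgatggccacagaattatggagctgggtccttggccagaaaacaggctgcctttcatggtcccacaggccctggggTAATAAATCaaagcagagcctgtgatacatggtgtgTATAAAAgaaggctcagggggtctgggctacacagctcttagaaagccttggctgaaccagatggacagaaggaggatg

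The 3 motifs were searched on both strands and do not overlap each other. CCGGAAG was found in 8.86% of 32851 promoter windows of this length, TATAAAA in 5.48% and TAATAAATC in 0.174%, which is 57 windows. In Rhox5 the match began 34 bases before the start. In Ren1 the matches began 65 and 29 bases before it. The Rhox5 window held 5 CpG dinucleotides and the Ren1 window 1, against a median of 7 over all windows (quartiles 3 and 20). The RefSeq start of Rhox5 lies 50.2 kb before that of GENCODE, and the deposited values do not say from which start the RNA came. A match of letters is a description and does not show that a factor bound there.

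The deposited values are log2 values centred for each gene, so levels of different genes cannot be ranked. For all 4 members the centred scale could be turned into reads. In 727 genes (4.21%) 2 or more samples shared exactly the same value, which fitted samples with 0 reads entered as 1 scaled unit. In those genes, members aside, the other low values were close to whole multiples of a constant of each sample, the value of 1 read. Of 3959 values up to 20 reads, 86.4% lay within 0.05 of a whole number, and 10 lay below 1 read. All 60 values of the 4 members came out whole on this scale, within the same tolerance, 18 of them as 0 reads. Depth differed 4.55-fold between samples, so reads are given with the log2 values. The coding also means that a sample with 0 reads stands above one with 1 read in 14 of the 15 samples, so small differences among the low values have no meaning.

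Rhox5 stood at 11.66 in the CP sample of 2225L, from 17872 reads, and at 10.63 in the ROSEN sample, from 11644 reads. In 2151R replicates 1 to 4 its values were -3.15, -1.90, -2.54 and -2.51, from 1, 0, 1 and 1 reads. T11 had 8 reads, at -0.41. The 8 samples of 2208L ran from -2.59 through a median of -0.90 to 0.31, with 0 to 10 reads each. Transcripts were thus near the limit of detection in all 13 samples outside 2225L and abundant in both samples of 2225L. The mean of 2225L was 11.15 ± 0.73 (SD, n = 2), that of 2208L -0.99 ± 1.16 (SD, n = 8), and that of 2151R -2.53 ± 0.51 (SD, n = 4). The differences of means were 13.68 from 2151R and 12.14 from 2208L, which chose the gene. As a ratio of reads scaled for depth, 2225L held 3383 times the level of 2208L (exact 95% interval 2421 to 4886) and 19522 times that of 2151R (6679 to 94670). These intervals cover counting error only, here and for the other members.

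Ren1 stood at 13.11 in the CP sample of 2225L, from 13008 reads, and at 11.60 in the ROSEN sample, from 6072 reads. In 2151R its values were -1.25, 0.00, 4.97 and -0.61, from 1, 0, 49 and 1 reads, so replicate 3 stood apart from the other 3. T11 had 0 reads. In 2208L the values ran from -1.11 through a median of 0.00 to 2.88, with 0 reads in 4 of 8 samples, 1 read in 2, and 11 and 8 reads in replicates 6 and 8. The lowest 2225L value exceeded the highest of the other 13 samples by 6.62 on the log2 scale, a factor of 98.5. The mean of 2225L was 12.35 ± 1.07 (SD, n = 2), that of 2208L 0.43 ± 1.39 (SD, n = 8), and that of 2151R 0.78 ± 2.84 (SD, n = 4). The differences that chose Ren1 were 11.57 from 2151R and 11.92 from 2208L. The scaled reads of 2225L were 3541 times those of 2208L (2316 to 5722) and 742 times those of 2151R (564 to 997), and at least 5247-fold higher than in T11 at a floor of 3 reads. Without replicate 3 of 2151R, which held 49 of the 51 reads there, the difference from 2151R was 12.97 and the ratio 14600 (4041 to 120564) on 2 reads.

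Brinp2 stood at 11.62 in the CP sample of 2225L, from 4624 reads, and at 12.15 in the ROSEN sample, from 8887 reads. In 2151R its values were 0.33, 0.57, 0.36 and 0.00, from 3, 2, 2 and 0 reads, and T11 had 4 reads at 0.50. In 2208L the values ran from -0.11 through a median of 0.00 to 1.0, with 0 reads in 5 of 8 samples and at most 3 reads in the others. No sample outside 2225L held more than 4 reads of this neural gene. The mean of 2225L was 11.88 ± 0.37 (SD, n = 2), that of 2208L 0.16 ± 0.37 (SD, n = 8), and that of 2151R 0.32 ± 0.23 (SD, n = 4). The differences that chose Brinp2 were 11.57 from 2151R and 11.72 from 2208L. The scaled reads of 2225L were 7522 times those of 2208L (3650 to 18713) and 3830 times those of 2151R (1858 to 9528).

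Snorc stood at 7.52 in the CP sample of 2225L, from 2176 reads, and at 10.62 in the ROSEN sample, from 24758 reads. This gene differed most between the 2 samples of 2225L, by a factor of 8.55, against 2.85 for Ren1, 2.04 for Rhox5 and 1.44 for Brinp2. Rhox5 and Ren1 were higher in the CP sample, and Brinp2 and Snorc in the ROSEN sample. In 2151R Snorc had 0 reads in replicates 1 to 3, at -3.01, and 3 reads in replicate 4, at -2.03. T11 had 0 reads. In 2208L its values ran from 0.00 through a median of 1.38 to 1.85, with 5 to 68 reads, so that each of the 8 samples had reads and stood above all 2151R samples and T11. Snorc was therefore the only member with an ordering below 2225L. There 2208L came next and 2151R and T11 last, without overlap between 2208L and 2151R. Of all 17271 genes, 48.8% were called between 2151R and 2208L by limma, so a difference between these models is common. The mean of 2225L was 9.07 ± 2.19 (SD, n = 2), that of 2208L 1.06 ± 0.77 (SD, n = 8), and that of 2151R -2.76 ± 0.49 (SD, n = 4). The differences that chose Snorc were 11.83 from 2151R and 8.01 from 2208L. Without the CP sample the difference from 2208L was 9.56, and without the ROSEN sample 6.46. The scaled reads of 2225L were 395 times those of 2208L (350 to 447) and 17814 times those of 2151R (6095 to 86389), and at least 7406-fold higher than in T11 at a floor of 3 reads.

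**Figure D1:**
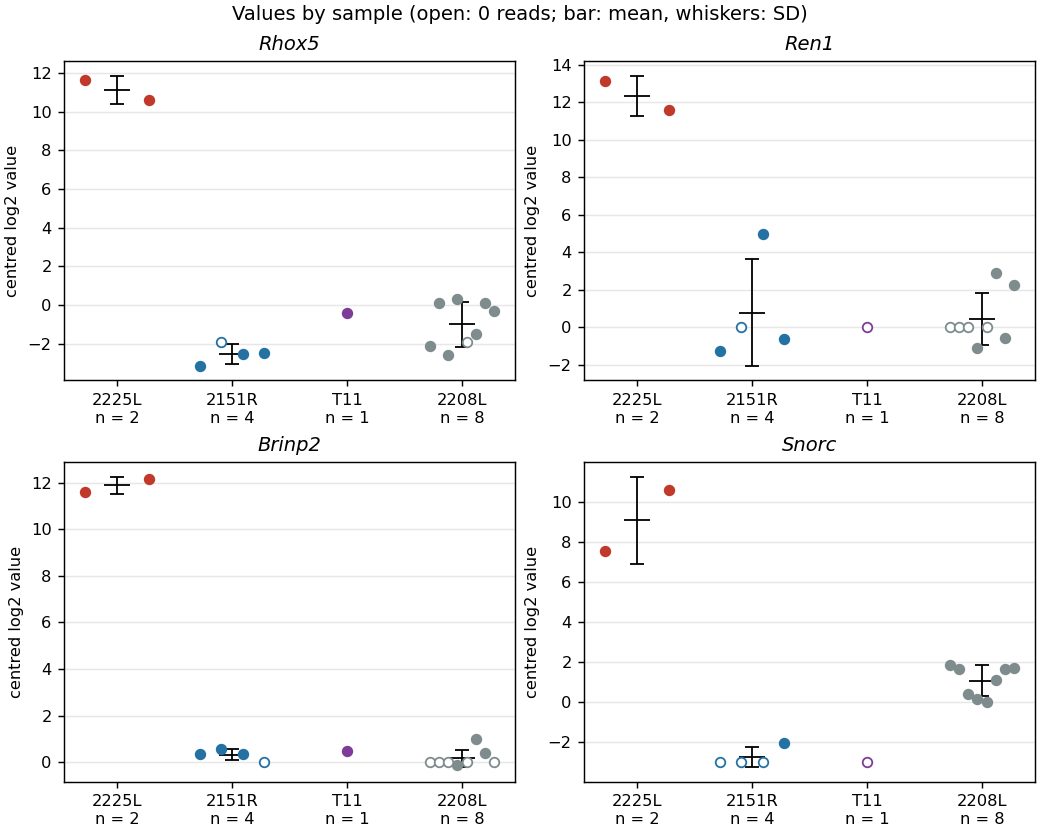
Centred log2 value (vertical axes) of each gene in each sample, by model on the horizontal axis, with open points for 0 reads, bars for group means and whiskers for the SD. Both 2225L samples lie above all 13 others for each gene, and only Snorc separates 2208L from 2151R and T11.

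The order of the groups below 2225L could not be resolved for the other 3 members. Rhox5 was at -2.53 in 2151R and -0.99 in 2208L, but the 2 ranges overlapped and rested on 0 to 10 reads a sample. Ren1 and Brinp2 differed between the means of 2151R and 2208L by 0.35 and 0.15, less than the SD within either group for both genes. These low values took part in the choice of the members and were not tested. Within the ROSEN samples alone, 2225L against 2208L, Rhox5 stood at 10.63 against -2.13, Ren1 at 11.60 against 0 reads, Brinp2 at 12.15 against 0 reads and Snorc at 10.62 against 1.85.

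Outside 2225L, Ren1 was highest in 3 samples, 2151R replicate 3 and 2208L replicates 6 and 8, with 49, 11 and 8 reads, while the other 10 samples had 0 or 1 read. Those 3 samples were also rich in genes of skeletal muscle, a tissue that can be cut out with a mammary tumour. The mean log2 value over 6 muscle genes, all of them listed in the table, was 7.99, 11.01 and 10.49 in them and between -3.82 and 3.27 in the other 10. In 2225L it was 2.48 in the CP sample and -0.47 in the ROSEN sample, within the range of those 10. Markers of mural cells, the vessel wall cells related to renin cells, had means of 0.23, 1.5 and 1.15 in the 3 samples, -0.80 to 0.46 in the other 10, and 0.57 and -0.59 in 2225L. Des, among the 6 mural markers, is also made by skeletal muscle, so their mean cannot be told apart from muscle content. In PBS minus 3day nt Des differed by -3.65, and Acta2 and Myh11 by -0.68 and -0.92. Rgs5, Cspg4 and Mcam differed by 0.44, 0.05 and 0.24, and none of the 6 was called. The part of muscle or vessel tissue in the Ren1 reads of these 3 samples was not tested.

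**Figure D2:**
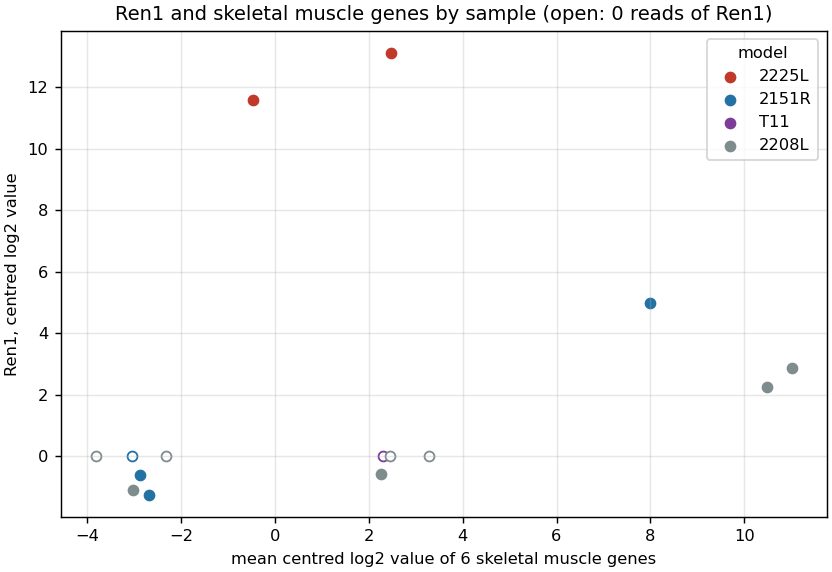
Centred log2 value of Ren1 (vertical axis) against the mean centred log2 value of 6 skeletal muscle genes (horizontal axis) in the 15 samples, coloured by model, with open points for 0 reads of Ren1. The 3 samples at 7.99 to 11.01 on the horizontal axis hold the highest Ren1 values outside 2225L, and the 2 samples of 2225L lie apart, at low muscle values.

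Within 2208L, samples titled PBS and 3day nt could be compared for the members, since the choice did not use this contrast. With limma, 34.0% of the 17271 genes differed between the 2 subsets at an adjusted p under 0.05. None of the 4 members passed: 0 of 4 by limma, 0 at an unadjusted p under 0.05, and 0 with a trended or a robust variance. All 4 estimates were lower in PBS. Ren1 had 0, 0, 1 and 0 reads in the 4 PBS samples and 11, 1 and 8 in the 3 samples of 3day nt, a difference of -1.79 (SE 0.82, limma adjusted p 0.132). Snorc had 50, 17, 19 and 5 reads in PBS and 26, 38 and 43 in 3day nt, a difference of -0.93 (SE 0.42, limma adjusted p 0.125). Brinp2 differed by -0.50 (SE 0.23, limma adjusted p 0.132) and Rhox5 by -0.44 (SE 0.82, limma adjusted p 0.693), each on 10 or fewer reads a sample. The Ren1 call depended on which samples were kept. Without replicate 7, the 3day nt sample that was not rich in muscle genes, the limma adjusted p was 0.00522 at -2.84, which compares 4 PBS samples with muscle-rich samples alone. Leaving out the muscle-rich replicates 6 and 8 left only replicate 7 of 3day nt, whose spread is then assumed to be that of the other samples, and the difference was 0.31, not called. With 0 reads set to the level of 0.5 reads, Ren1 passed at -2.79 (limma adjusted p 0.0446). Snorc passed without replicate 2, at -1.30 (limma adjusted p 0.0182). The titles of the PBS samples begin with DH and those of 3day nt with KM, codes whose meaning is not given. Subset, library number range and these codes cannot be told apart in this contrast.

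Genes beside the members on the chromosome were not part of the choice and were tested across the whole table. In the limma fit of all 15 samples, 15.6% of the 17271 genes were higher and 17.3% lower in 2225L than in 2208L, and 22.8% were higher and 25.8% lower than in 2151R. The 2 comparisons share the 2225L samples. The neighbourhoods are the 10 table genes on each side of a member. Around Ren1, 6 of 20 neighbours were higher and 1 lower against 2208L (median difference 0.75, all genes -0.04), and 8 were higher and 2 lower against 2151R (median 0.88, all genes -0.10). The 3 genes next after Ren1 were all higher in 2225L. Etnk2, an ethanolamine kinase that starts 3.14 kb beyond Ren1, differed by 4.57 from 2208L and 10.15 from 2151R (limma adjusted p 6.01e-05 and 4.67e-08). Sox13, a transcription factor of the SOX family, differed by 4.30 and 6.31 (limma adjusted p 4.45e-06 and 1.02e-07). Snrpe, a core protein of spliceosomal particles, differed by 4.02 and 4.88 (limma adjusted p 1.66e-05 and 2.4e-06). Its near copy Snrpert, on chromosome 2, differed by 4.54 and 6.14. Reads can be split wrongly between these copies, so the rise cannot be placed at Snrpe with certainty. The run ended at the next gene, Zc3h11a, at -0.01 and -0.08, neither called. On the other side Plekha6 differed by 0.04 from 2208L (limma adjusted p 0.933) and by 3.32 from 2151R (limma adjusted p 1.54e-06). Sox13, Snrpe and Zc3h11a were named after their values were seen.

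Around Rhox5, 4 of 20 neighbours were higher and 1 lower against 2208L (median 0.20), and 11 higher and 0 lower against 2151R (median 0.80). On the whole of chromosome X, 18.6% of 553 genes were higher and 12.8% lower against 2208L, and 34.9% higher and 14.8% lower against 2151R. For 2151R against 2208L, 0 of these 20 neighbours were higher and 11 lower (median -0.88). Of all genes 26.1% were higher and 22.7% lower in 2151R. On chromosome X 15.0% were higher and 32.2% lower (median -0.25). Rhox2g, the nearest table gene before Rhox5 and another homeobox gene of the cluster, had 221 reads in the CP sample of 2225L, 12 in the ROSEN sample and 0 in all 13 others, a difference of 4.93 from either model (limma adjusted p 0.000215 against 2208L). Rhox2b had 0 reads in the CP sample, 710 in the ROSEN sample and 0 in the 13 others. Rhox2b and Rhox2g are near-identical copies between which reads can be split wrongly, so only their joint presence in both 2225L samples can be read. The third Rhox gene of the table, Rhox4a2, had 0 reads in both 2225L samples and up to 13 in the others. Gm9, 4 genes before Rhox5, had 886 and 23 reads in 2225L and at most 11 elsewhere (5.36 from 2208L, limma adjusted p 0.00122). Zbtb33, next after Rhox5, differed by -0.25 from 2208L and was not called (limma adjusted p 0.616). From 2151R it differed by 0.98 (limma adjusted p 0.0445), a call lost without the CP or the ROSEN sample (limma adjusted p 0.138 and 0.132). Rhox2b, Rhox4a2 and Gm9 were named after their values were seen.

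Around Brinp2 the neighbours did not share its direction. Only 1 of 20 was higher and 6 were lower against 2208L (median -0.58), and 2 were higher and 8 lower against 2151R (median -0.53). The nearest genes were Sec16b, at -1.78 from 2208L (limma adjusted p 0.000132), and Cop1, at -0.46 (limma adjusted p 0.0536). Around Snorc, 7 of 20 were higher and 2 lower against 2208L (median 0.59), and 6 higher and 1 lower against 2151R (median 0.42). Kcnj13, a potassium channel gene that lies inside Gigyf2, differed by 4.63 from 2208L and 5.32 from 2151R (limma adjusted p 1.4e-05 and 3.28e-06). Whether counting used strand is not given in the sources used here, so reads of the 2 genes may not be told apart, and Gigyf2 itself differed by -0.02 and -0.42 without a call. Ngef, which starts 1.35 kb beyond Snorc, differed by 2.17 from 2208L (limma adjusted p 0.0143, and 0.174 without the ROSEN sample) and by -0.77 from 2151R (limma adjusted p 0.355). Gigyf2 was named after its values were seen.

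**Figure D3:**
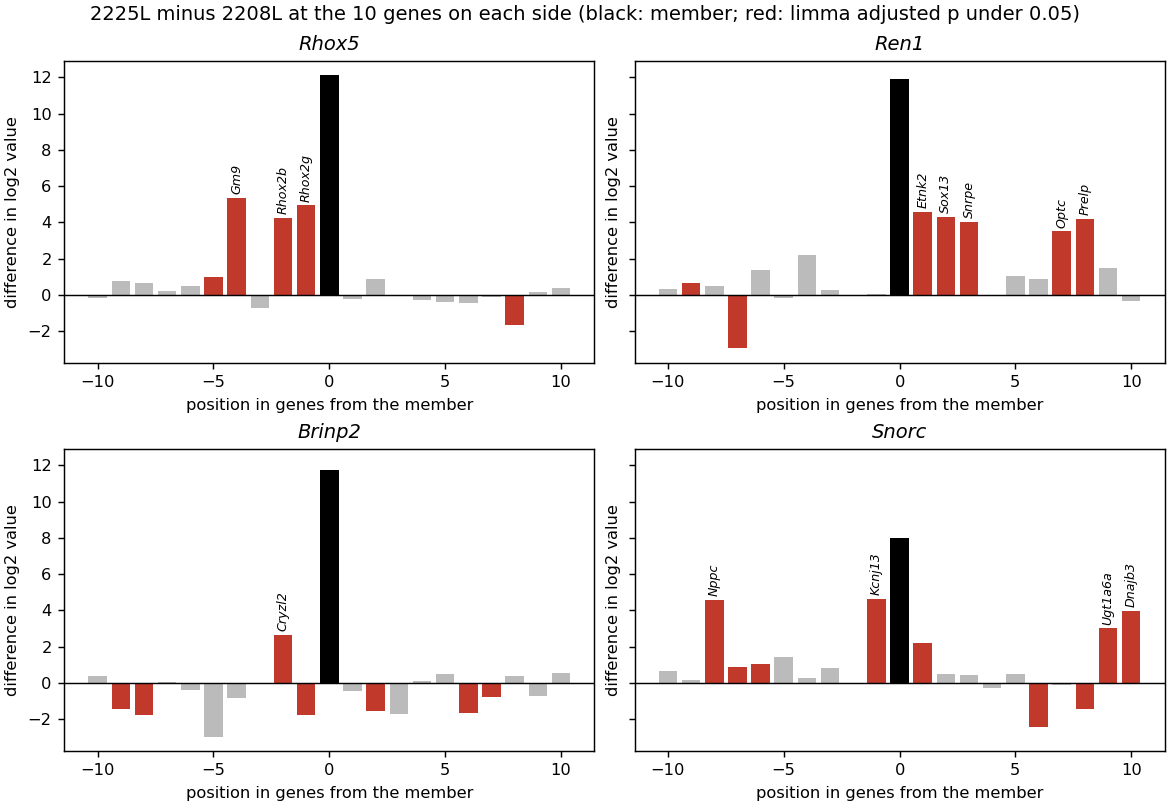
Difference in log2 value, 2225L minus 2208L (vertical axes), for the 10 table genes on each side of each member in RefSeq order (horizontal axes), with the member in black and called genes in red. The 3 genes after Ren1 and the Rhox2 copies before Rhox5 are raised, while the neighbours of Brinp2 centre below 0. Reads of Snrpe, the third gene after Ren1, can be shared with a near copy on another chromosome.

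Along chromosome 1, which carries Snorc, Ren1 and Brinp2, the running median of 21 genes of the difference from 2208L was computed for each 2225L sample. At Ren1 it was 0.88 in the CP sample and 0.48 in the ROSEN sample, at Snorc 0.77 and 0.58, and at Brinp2 -0.55 and -0.32. Larger values stood elsewhere, at Wnt6 (1.87 and 1.15) and at Ppox (2.35 and 1.95). On the whole chromosome 16.2% of 988 genes were higher and 19.03% lower against 2208L, near the shares over all genes. Copy number was not measured, and the windows were read after their values were seen.

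**Figure D4:**
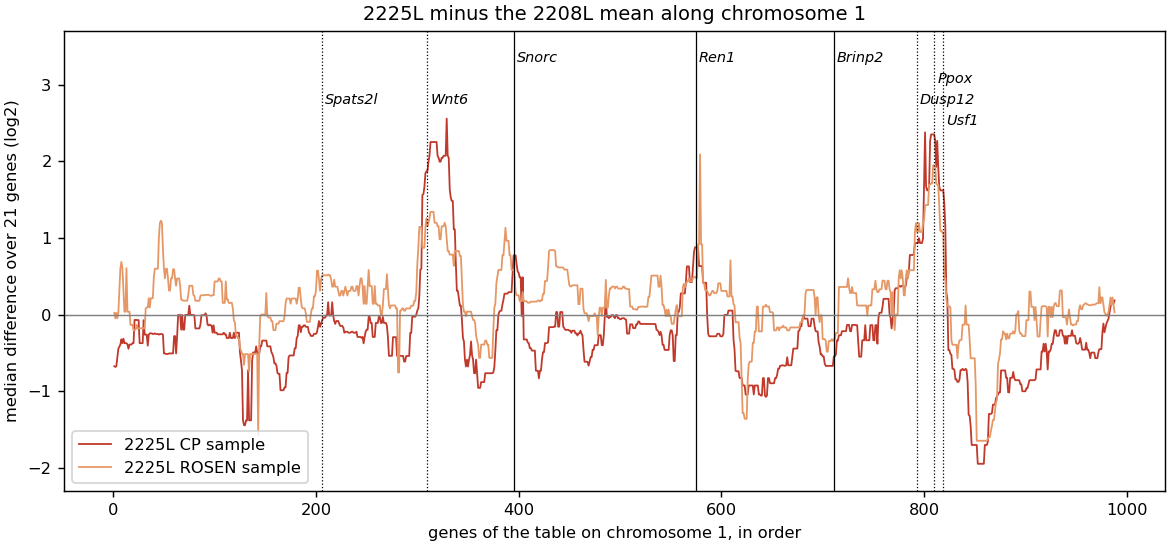
Running median over 21 genes of the difference from the 2208L mean (vertical axis, log2) along the 988 table genes of chromosome 1 in order (horizontal axis), for the 2 samples of 2225L. Solid lines mark the 3 members and dotted lines the genes with a pattern most like a member, of which Wnt6, Ppox, Dusp12 and Usf1 lie in 2 raised stretches.

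By Pearson correlation over the 15 samples, the 5 named genes most like each member made 18 distinct genes. Each of the 18 was higher in both 2225L samples than in all other samples, so likeness here mostly restates the gap between 2225L and the rest. For Rhox5 they were Spats2l (r = 0.974), Zfp92, Zfp345, Ppox and Slc15a1. For Ren1 they were Lrp8os2 (r = 0.95), Clstn3, Wnt6, Dusp12 and Sostdc1. For Brinp2 they were Zfp345 (r = 0.995), A2ml1, Gp2, Lamp5 and Dusp12, of which A2ml1 and Gp2 had 0 reads in all 13 other samples. For Snorc they were Slc39a4 (r = 0.980), Smpd2, Usf1, Rps6kl1 and Snrpert, a near copy of Snrpe whose reads are uncertain. Of the 18, 5 lie on chromosome 1 (27.8%), namely Spats2l, Ppox, Wnt6, Dusp12 and Usf1. By Spearman rank only Lrp8os2 stayed among the 5 most like Ren1, and none did for the other members. Between the members themselves Pearson r ran from 0.78 to 0.96 over 15 samples and from -0.27 to 0.48 over the 13 samples without 2225L.

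Genes known to act on Rhox5 were called in both directions, as were genes of the whole table. Over all genes, 15.6% were higher and 17.3% lower in 2225L than in 2208L, and 22.8% higher and 25.8% lower than in 2151R. Of 15 genes of the DNA methylation machinery, 1 was higher and 3 lower in 2225L than in 2208L, and 2 were higher and 5 lower than in 2151R (medians -0.25 and 0.11). Without the ROSEN sample these counts were 1 higher and 2 lower, and 2 higher and 1 lower. Dnmt3a, a methyltransferase that sets new methylation, was lower by both comparisons, at -4.88 and -3.25 (limma adjusted p 6.88e-08 and 1.82e-06). Dnmt3b, the other such enzyme, was higher, at 2.92 and 3.26 (limma adjusted p 6.16e-07 and 1.72e-07). Dnmt1, which copies methylation at replication, differed by -0.25 from 2208L (limma adjusted p 0.507) and by -0.91 from 2151R (limma adjusted p 0.0212, but 0.0545 without the CP sample, 0.109 without the ROSEN sample and 0.0542 without 2151R replicate 1). Of 3 germline genes in the table, out of 21 listed, Xlr4a of the X-linked lymphocyte-regulated family was higher by 8.72 and 8.58 (limma adjusted p 4.82e-05 and 5.04e-05), with reads that can be shared with near copies. It was the 1 of the 3 that was higher in each comparison, with 0 lower against 2208L and 1 lower against 2151R. The lower one was Sycp1, a protein of the meiotic synaptonemal complex, at -2.37 and -3.36 (limma adjusted p 0.112 and 0.0317, the second 0.216 without the ROSEN sample). Xlr3a, of the same family as Xlr4a, differed by 3.94 and 5.17 with no call (limma adjusted p 0.153 and 0.0672). Without the muscle-rich samples it was called in both (limma adjusted p 0.0381 and 0.0258). Sycp1 and Xlr3a were named after their values were seen.

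Of the other genes of the renin-angiotensin system, 9 were listed in the table, and of these 0 were higher and 2 lower against 2208L, and 0 higher and 3 lower against 2151R (medians -0.35 and -1.14). This count rested on the CP sample. Without it, with the ROSEN sample alone against the others, 2 were higher and 0 lower against 2208L, and 1 higher and 0 lower against 2151R. Ace, the enzyme that forms angiotensin II, differed by -2.09 and -1.76 (limma adjusted p 0.00581 and 0.0166), and by -1.45 and -1.12 without the CP sample, when neither was called. Atp6ap2, the prorenin receptor, differed by 0.18 and 0.29 (limma adjusted p 0.630 and 0.427), and by 0.77 and 0.88 without the CP sample, when both were called (limma adjusted p 0.0331 and 0.0153). Agtr1a, an angiotensin II receptor, differed by 0.50 and -0.55, neither called (limma adjusted p 0.561 and 0.514). Agt, which encodes the substrate of renin, was listed but is not among the genes of the table under this symbol. Among 15 genes known to control renin, 2 were higher and 2 lower against 2208L (median -0.04, all genes 15.6% higher and 17.3% lower). Against 2151R, 2 were higher and 4 lower (median 0.15, all genes 22.8% higher and 25.8% lower). Vdr, the vitamin D receptor, was at -2.22 against 2208L and 1.43 against 2151R, with opposite signs (limma adjusted p 0.000631 and 0.0119, the second 0.193 without the CP sample).

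Of the other BRINP genes, Brinp3 was lower in 2225L, at -3.13 from 2208L and -6.73 from 2151R (limma adjusted p 0.0169 and 0.0001), the first at -1.08 and 0.420 without the ROSEN sample. Brinp1 differed by -0.19 and -0.67, with no call (limma adjusted p 0.933 and 0.745). The retinoic acid pathway, for which the family is named in part, had 8 higher and 0 lower of 17 genes against 2208L (median 0.53) and 9 higher and 0 lower against 2151R (median 0.78). Without the CP sample these counts were 5 higher and 2 lower, and 9 higher and 1 lower. Aldh1a1, which makes retinoic acid, was higher by 6.29 and 7.02 (limma adjusted p 0.0006 and 0.000265). Cyp26a1, which degrades retinoic acid, was higher by 4.53 and 4.49 (limma adjusted p 0.000874 and 0.000993). Crabp2, which carries it into the nucleus, was higher by 4.51 and 3.37 (limma adjusted p 0.000522 and 0.00411). Crabp2 stood at -0.30 in the CP and 2.34 in the ROSEN sample of 2225L, and at 3.58 in T11, above both. Cyp26a1 and Crabp2 were named after their values were seen. In the BMP pathway 3 of 20 genes were higher and 4 lower against 2208L (median -0.31, all genes 15.6% higher and 17.3% lower). Against 2151R, 4 were higher and 7 lower (median -0.65, all genes 22.8% higher and 25.8% lower). Without the CP sample the medians were 0.11 and -0.09, with 4 higher and 4 lower, and 5 higher and 7 lower. Without the ROSEN sample they were -0.80 and -1.46, with 2 higher and 4 lower, and 4 higher and 9 lower. Bmp7, a ligand, was higher by 7.93 and 9.40 (limma adjusted p 6.61e-05 and 1.4e-05), while Grem1, a BMP antagonist, was lower, at -3.15 and -4.22 (limma adjusted p 0.0127 and 0.00236), the first 0.0575 without the CP and 0.0842 without the ROSEN sample. Of 8 neuronal genes 2 were higher and 0 lower against 2208L, and 1 higher and 3 lower against 2151R. Uchl1, a neuronal ubiquitin hydrolase, was higher by 2.17 and 4.06 (limma adjusted p 0.0103 and 0.000147), the first 0.21 without the ROSEN sample, and Nefl, a neurofilament chain, had 0 reads in both 2225L samples.

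Genes of cartilage, where Snorc is normally made, differed in both directions. Over all genes, 15.6% were higher and 17.3% lower in 2225L than in 2208L, and 22.8% higher and 25.8% lower than in 2151R. Of 23 genes 8 were higher and 4 lower in 2225L than in 2208L (median 0.94), and 14 were higher and 4 lower than in 2151R (median 3.02). The median from 2208L was 0.26 without the CP sample (9 higher, 5 lower) and 0.49 without the ROSEN sample (7 higher, 4 lower), and that from 2151R was 3.28 and 2.45. In 2151R against 2208L, 2 of the 23 were higher and 12 lower (median -2.24, all genes 0.10). Cnmd, which encodes the cartilage glycoprotein chondromodulin, was higher in 2225L by 6.23 and 9.50 (limma adjusted p 1.2e-05 and 2.13e-07). Named after their values were seen, Col2a1, the main collagen of cartilage, was higher by 3.43 and 8.24 (limma adjusted p 0.0011 and 7.05e-07) and Hapln1, a link protein of its matrix, by 3.15 and 3.02 (limma adjusted p 8.44e-06 and 9.16e-06). Of the factors that drive this programme, Sox9 differed by -0.94 and -1.0 with no call (limma adjusted p 0.0794 and 0.0663), and by -1.97 and -2.03 without the CP sample, when both were called (limma adjusted p 0.000519 and 0.000235). Sox5, its partner in cartilage, was lower, at -6.17 and -2.62 (limma adjusted p 2.2e-08 and 2.66e-05). Sox6, Comp and Col9a1 differed from 2208L by -4.23, -3.49 and -1.99 (limma adjusted p 0.0136, 0.0432 and 0.0117). They were also named after their values were seen. From 2151R they differed by 0.36, 1.08 and 6.69, with only Col9a1 called. The CP and ROSEN samples held Sox6 at -2.18 and 3.24 and Comp at -3.98 and 1.86. Hapln1 stood at 5.44 in T11, above both 2225L samples (2.61 and 3.12). Of 12 cell surface proteoglycans 4 were higher and 3 lower against 2208L, and 5 higher and 2 lower against 2151R. Among them Gpc1, a glypican, was higher by 4.11 and 1.58 (limma adjusted p 1.38e-06 and 0.00268).

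**Figure D5:**
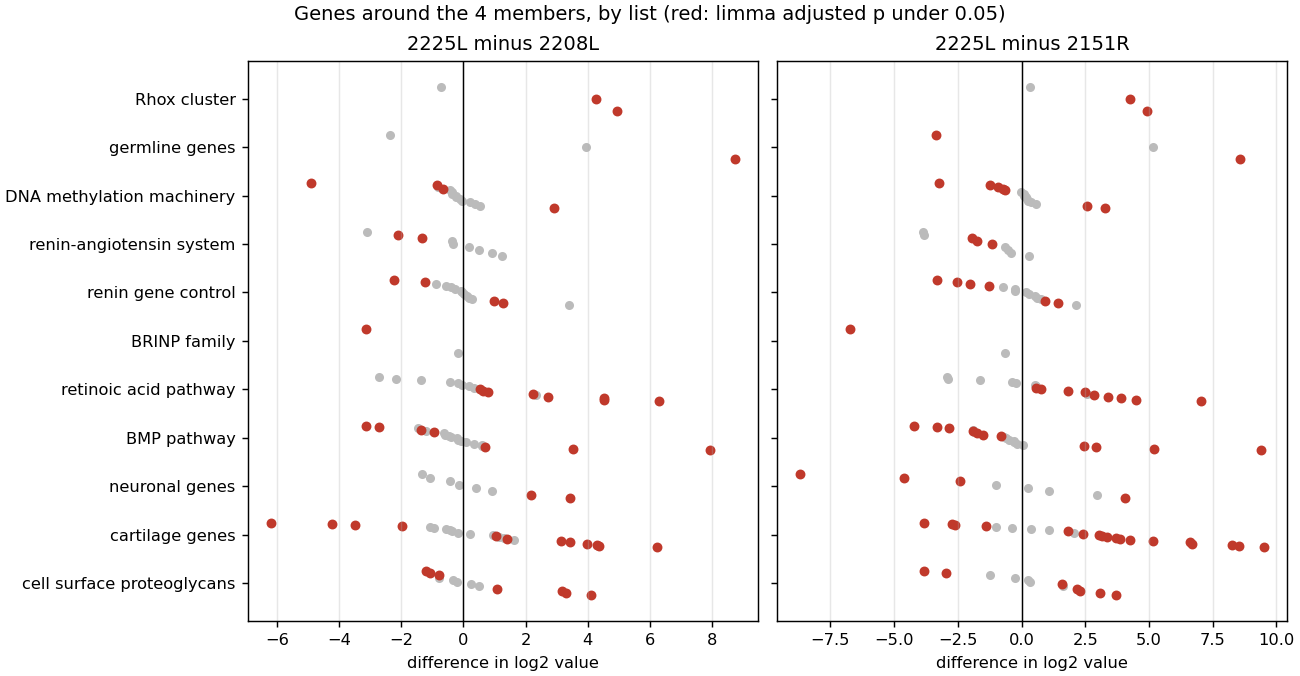
Difference in log2 value of 2225L from 2208L (left) and from 2151R (right) on the horizontal axes, for the genes of each list on the vertical axis, with called genes in red. Retinoic acid genes called in either panel all lie above 0, and cartilage genes lie on both sides, with 8 higher and 4 lower on the left.

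The labelled tissue was set against markers of epithelium and of other cells. The mean of 6 epithelial markers was 2.72 to 2.82 in 2225L, -0.24 to 1.14 in 2208L, -3.27 to -2.32 in 2151R and -7.51 in T11, and 2 of the 6 were higher in 2225L than in 2208L and 6 of 6 than in 2151R. The 2 were the basal keratins Krt5 and Krt14, at 9.81 and 4.51 from 2208L (limma adjusted p 0.000212 and 0.000122). The other 4, Epcam, Cdh1, Krt8 and Krt18, differed from 2208L by -0.26, 0.03, 0.25 and 0.60 with no call, so the higher mean of the list against 2208L came mostly from the 2 keratins. The mean of 4 glial markers was 0.39 and 1.71 in 2225L, -0.74 to 1.29 in 2208L and -2.43 to -0.59 in 2151R. Fibroblast markers were at -0.74 and -0.64 in 2225L and macrophage markers at -1.85 and -0.84. In neither did 2225L stand above 2208L or 2151R. Of 4 macrophage markers, 2 were lower in 2225L than in 2208L (median -0.87) and 4 lower than in 2151R (median -2.40). Without the CP sample the macrophage median from 2208L was -0.43. Of 6 fibroblast markers, 0 were lower than in 2208L and 2 lower than in 2151R. The 2 samples of 2225L differed in other lists. Adipocyte markers stood at -2.53 in the CP and 2.46 in the ROSEN sample. T cell markers stood at -1.36 and 1.03, and endothelial markers at 0.16 and -0.96. The part of these markers in the values of the members was not tested.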

How the data were processed

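The values deposited by the authors are on a log2 scale, in 1 table of 17271 genes by 15 samples. The submitters' processing notes name STAR, Salmon and mm10; how these were used, the normalization and the counting strand are not given in the sources used here. Libraries were made from polyadenylated RNA, per the labels' protocols. All 15 columns matched a sample title, and 0 columns were left unmapped. The recovery of reads and the coding of 0 reads were inferred from the values. Models were set against each other by limma (version 3.58.1, R 4.3.3), in 1 fit of all 15 samples with a shared spread and no trend, and PBS with 3day nt in a fit of 7 samples. A gene is called at an adjusted p under 0.05, by Benjamini-Hochberg over all genes. Read ratios have exact 95% binomial intervals, computed in Python 3.11.15. The fit was tested on simulated data. The named genes are the members, the 5 genes most like each, the nearest neighbours, and in each list the called gene with the largest difference in each direction, with partners such as Agtr1a. A gene list is not reported here. Members, lists and rules were chosen with earlier results of these data known. Alternatives were other scalings, spread models, filters, codings of 0 reads, a library prefix term and left-out samples. T11, with 1 sample, was not tested.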

Additional observations from a re-analysis of the deposited data

Results flagged for a closer look

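In 28 of 240 groups of 4 to 10 samples, a sample stood far from the others of its group. Chance alone gives about 1 in 20, or 12, for values without ties, and the groups overlap and share samples. Where all other samples had 0 reads, any read is flagged, as for Zfp345, Lrp8os2 and Lamp5 in 2208L. The count of 28 thus cannot be set against 12. No explanation was tested. Among the members, 2208L replicate 4 had Ren1 at -1.11 and Brinp2 at -0.11 (1 and 2 reads) among PBS samples with 0 reads, 2208L replicate 6 had Brinp2 at 1.0 (3 reads), and 2151R replicate 4 had Snorc at -2.03 (3 reads) against 0 reads in the others. Of the genes most like a member, Zfp92 was at 0.26 in 2208L replicate 8, Zfp345 at -0.69 in replicate 3 (also within PBS), Ppox at -0.76 in replicate 1, Slc15a1 at -0.58 in replicate 6 and at -1.25 in 2151R replicate 1, Lrp8os2 at -1.11 in 2208L replicate 4 (also within PBS), Wnt6 at -2.42 in 2151R replicate 4 and Lamp5 at -0.59 in 2208L replicate 7. In 2208L, Aldh1a3 was at 2.79 in replicate 2, Brinp3 at -1.31 in replicate 1, and Cnmd at -2.19 (also within PBS) and Dnmt3b at -0.49 in replicate 5. Within PBS, Ace was at 1.35 and Rhox4a2 at -0.11 in replicate 4, Dnmt3a at 1.49 and Rbbp5 at -0.36 in replicate 5, and Sdc1 at 1.38 in replicate 2. In 2151R, Cspg5 was at -1.13 and Rhox4a2 at -1.25 in replicate 1, and Enpep at 2.28 and Esr1 at 0.78 in replicate 2.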

How the results depend on the processing

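For the differences of the members from 2208L and 2151R, no alternative changed the direction of any 2225L difference. Quantile normalization gave Rhox5 12.28 from 2151R, Brinp2 10.55 from 2208L and 10.43 from 2151R, and Snorc 6.61 and 10.13; the prefix term gave Rhox5 14.28 from 2151R. With 0 reads at 0.5 reads, an alternative chosen after seeing the data, Brinp2 was 12.71 from 2208L, 11.97 from 2151R and 0.74 for 2151R minus 2208L; Snorc was 13.16 from 2151R and -5.15 for 2151R minus 2208L, which was -3.09 with repeated values missing. Leaving out 1 sample, Snorc ran from 6.46 to 9.56 from 2208L and from 10.28 to 13.38 from 2151R. For PBS minus 3day nt it ran from -1.30 to -0.75, Ren1 from -2.84 to -1.11, and Ren1 was -2.79 with 0 reads at 0.5 reads. Without muscle-rich samples, which leaves 1 sample of 3day nt, 76 genes were higher and 22 lower in PBS, against 3007 and 2857. Leaving out 1 sample gave 1362 to 3988 higher and 1017 to 3111 lower. Chst11 was at -1.37 from 2208L without 2225L replicate 1 and at 1.78 without replicate 2, against 0.21. Other causes were not tested. No paired analysis was possible because no title gives a replicate number. Model comparisons with 2225L rest on 2 samples of different library prefix. Without either one, the lone sample is assumed to vary like the other groups. Outside 2225L the members had 0 to 10 reads a sample, except Snorc in 2208L and Ren1 in 2151R replicate 3 (49) and 2208L replicate 6 (11), so most ratios carry wide counting intervals.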
